A study of Mus musculus with 3 samples.

Results

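The immediate early and stress response genes described here were *Jun*, *Junb*, *Fosb*, *Atf3*, *Ier2*, *Btg2*, *Gadd45a* and *Gadd45b*. They were taken by name, 8 of the 9781 gene rows kept from 1 expression table, and were chosen with earlier results of these data known. All 8 had a row. Droplet single cell RNA-seq had been carried out on 3 normal mouse tissues with 1 library for each, namely urogenital sinus (UGS, which gives rise to the prostatic buds) of E18.5 males, and prostate at P14 and at P35. The tissues were dissociated with collagenase and TrypLE. The labels call the tissues normal and give neither a genotype nor the number of animals behind a library. Cell barcodes ended in 1, 2 or 3, and because no label ties an ending to an age the cells are called barcode sets 1, 2 and 3. No comparison of ages was made. With 1 library for each tissue there was no replicate and no test, so every interval in parentheses is an exact 95% interval that covers counting error only.

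Immediate early genes are transcribed within minutes of a stimulus such as a growth factor, a stress or an injury, without new protein synthesis, and their mRNAs are short lived. *Jun*, *Junb* and *Fosb* encode subunits of AP-1, a dimeric transcription factor, and *Atf3* encodes a related stress-induced factor that can pair with Jun proteins. *Ier2* is an early response gene of less defined role, while *Btg2*, *Gadd45a* and *Gadd45b* encode small proteins tied to growth arrest, DNA damage and stress kinase signaling. Enzymatic dissociation of tissue is itself a known stimulus of these genes. Its part in the levels below was not tested.

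Depth was measured in unique molecular identifiers (UMIs), the tags that mark single mRNA molecules. The median cell held 19357 of them in set 1 (766 cells), 1738 in set 2 (5350 cells) and 1788 in set 3 (8457 cells). The sets shared 14 barcodes. Rates are in CPM, which scales a gene's UMIs, added over cells, to 1000000 UMIs in total. They count 3′ ends and are not divided by gene length. The 14573 cells, less 97 with under 200 genes, fell into 14 clusters, of which 12 were named by their markers. Epithelium-like cells numbered 137, 1537 and 2853 in sets 1, 2 and 3, and fibroblast-like cells 280, 1635 and 2601. Pericyte-like cells (12, 28 and 129), leukocyte-like cells (38, 25 and 177), glia-like cells (21, 192 and 236), endothelium-like cells (37, 96 and 198) and neuron-like cells (32, 15 and 19) were fewer. Epithelium-like cells of set 1 lay mostly in cluster 4 (106 of 137), while the largest group was cluster 5 in set 2 (637 of 1537) and cluster 3 in set 3 (1132 of 2853).

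Some class labels were weaker in 1 set than in another. The smooth muscle-like class is cluster 0, whose 157, 1638 and 1978 cells carried 2559, 24448 and 23466 CPM of 8 summed muscle markers in sets 1, 2 and 3. In set 1 these cells also carried 5059 CPM of 7 fibroblast markers and 3021 CPM of 5 erythroid markers, so their muscle label is weak there. Their number in set 1 also depended on the processing, at 63 with a finer resolution, 60 with at least 500 genes per cell, 80 with the listed genes among the features, 72 with cells classed one by one and 7 without integration. Glia-like cells carried 1387, 5472 and 4928 CPM of the fibroblast markers beside 6534, 4644 and 5308 CPM of 8 glial markers. Pericyte-like cells carried 4696, 5374 and 9921 CPM of muscle markers and 5028, 4042 and 2431 CPM of fibroblast markers beside 3092, 2457 and 3607 CPM of 6 pericyte markers, so the muscle markers were above their own in each set. The 25 leukocyte-like cells of set 2 carried 6001 CPM of muscle markers beside 4147 CPM of 12 leukocyte markers. The endothelium-like cells of set 2 carried 4214 CPM of erythroid and 3769.8 CPM of muscle markers beside 4947 CPM of 11 endothelial markers. Epithelium-like cells carried 4688, 2187 and 2653 CPM of 9 epithelial markers, beside 194, 1929 and 853 CPM of muscle and 459, 1758 and 1089 CPM of fibroblast markers in sets 1, 2 and 3, so these markers were nearly as high as their own in set 2. The part of other cell types in the levels of these classes was not tested. Since no class is known to lack these genes, no class served as a floor for free RNA.

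Promoter windows of 300 bases were taken from RefSeq (GRCm38.p6) for 7 of the 8 genes, and *Ier2* is named only. They were searched on both strands for TGANTCA, the AP-1 element, for TGANNTCA, its longer cyclic AMP type relative, for ACGTCA, a short form of the cyclic AMP response element (which can overlap the longer form), and for the CArG box bound by serum response factor. Across 32851 RefSeq promoters, 7.81% held TGANTCA, 14.1% TGANNTCA, 7.51% ACGTCA and 1.63% a CArG box. Windows of *Jun*, *Atf3* and *Btg2* held matches, and those of *Junb*, *Fosb*, *Gadd45a* and *Gadd45b* held none of the 4 motifs. The CCAAT box, a common promoter element, was searched as well and lay in 6 of the 7 windows (all but that of *Fosb*), against 37.4% of all promoters. The 3 windows with matches are shown with the matched bases of the 4 motifs in capitals, since these are the genes whose start sites carry such letters.
Jun (chr4:95052173-95052472, minus strand): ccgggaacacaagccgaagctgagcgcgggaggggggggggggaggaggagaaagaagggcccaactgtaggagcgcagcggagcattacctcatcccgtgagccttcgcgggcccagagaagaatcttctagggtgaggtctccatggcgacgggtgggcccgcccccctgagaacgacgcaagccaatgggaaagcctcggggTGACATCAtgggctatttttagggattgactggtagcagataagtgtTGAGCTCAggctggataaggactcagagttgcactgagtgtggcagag
Atf3 (chr1:191183284-191183583, minus strand): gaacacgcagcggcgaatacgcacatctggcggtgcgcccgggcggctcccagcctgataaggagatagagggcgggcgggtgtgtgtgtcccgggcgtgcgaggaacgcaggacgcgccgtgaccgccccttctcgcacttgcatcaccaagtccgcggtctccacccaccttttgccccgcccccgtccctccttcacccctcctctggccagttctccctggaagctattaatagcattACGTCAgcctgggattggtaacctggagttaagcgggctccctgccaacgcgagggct
Btg2 (chr1:134079106-134079405, minus strand): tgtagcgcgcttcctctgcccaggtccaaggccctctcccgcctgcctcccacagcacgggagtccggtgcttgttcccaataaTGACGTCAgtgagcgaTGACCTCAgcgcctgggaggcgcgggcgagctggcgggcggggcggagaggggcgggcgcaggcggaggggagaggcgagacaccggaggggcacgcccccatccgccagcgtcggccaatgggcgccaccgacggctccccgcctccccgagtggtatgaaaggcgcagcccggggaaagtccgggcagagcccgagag
Counted from the start site, the *Jun* matches began at -45 and 3, the *Atf3* match at -8 and the *Btg2* matches at -166 and -150. TGACGTCA at -166 of *Btg2* is the full palindrome and is matched by both the longer and the short form. A match describes letters in the window and does not show that a factor binds there.

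Over all cells *Jun* had the highest rate of the 8 genes in set 1, at 2589 CPM, *Ier2* in set 2, at 611, and *Junb* in set 3, at 931. Gene positions are those of RefSeq on GRCm38.p6 and span the whole gene. *Jun* (chr4:95049036-95052222), which encodes c-Jun, the founding subunit, was the highest of the 8 genes in all 8 classes of set 1 but in 1 class of set 2 and 3 classes of set 3. Fibroblast-like cells led in set 1 at 3581 CPM (3531 to 3631), followed by smooth muscle-like at 3218, pericyte-like at 2286, endothelium-like at 2228, epithelium-like at 1921, glia-like at 1802, neuron-like at 1412 and leukocyte-like at 1401. Glia-like cells stood first in set 2 at 686 CPM (590.1 to 793), ahead of pericyte-like at 597, smooth muscle-like at 563, fibroblast-like at 548, epithelium-like at 413, endothelium-like at 378, leukocyte-like at 293 and neuron-like at 229. Glia-like cells had the highest rate of set 3, at 2497 CPM (2317 to 2688), above fibroblast-like at 1000.2, endothelium-like at 904, pericyte-like at 886, epithelium-like at 678, smooth muscle-like at 562, neuron-like at 432 and leukocyte-like at 249.3. Of the 7 neighbouring pairs in each order of *Jun* rates, 3 in set 1, 6 in set 2 and 2 in set 3 had overlapping intervals. *Jun* was thus higher in fibroblast-like than in epithelium-like cells of each set, and glia-like cells had it at a high rate in sets 2 and 3. Cells were then thinned to 900 UMIs each, without the 7, 342 and 693 shallower cells of sets 1, 2 and 3. *Jun* was detected in 68.4, 28.7 and 39.6% of epithelium-like and 73.4, 30.9 and 37.3% of fibroblast-like cells. These shares lay close together in each set, although the rates did not.

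*Junb* (chr8:84976909-84978748) encodes an AP-1 subunit that often opposes c-Jun. Smooth muscle-like cells led in set 1 at 1822 CPM (1775 to 1870.3), followed by endothelium-like at 1518, epithelium-like at 1174, fibroblast-like at 1122, leukocyte-like at 1082, pericyte-like at 945, glia-like at 668 and neuron-like at 643. Endothelium-like cells stood first in set 2 at 1042 CPM (947 to 1143), ahead of pericyte-like at 919, glia-like at 626, fibroblast-like at 619, epithelium-like at 553, leukocyte-like at 525, smooth muscle-like at 468 and neuron-like at 179. Pericyte-like cells had the highest rate of set 3, at 3692 CPM (3431 to 3968), above fibroblast-like at 2198, glia-like at 2100, endothelium-like at 1407, smooth muscle-like at 1212, leukocyte-like at 1096, epithelium-like at 542 and neuron-like at 312. Intervals of *Junb* overlapped for 4, 5 and 2 of 7 neighbouring pairs in sets 1, 2 and 3. The difference between epithelium-like and fibroblast-like cells was small in sets 1 and 2 and large in set 3, where fibroblast-like cells stood at 2198 CPM (2151 to 2246) and epithelium-like cells at 542 CPM (531 to 554). Thinned shares were 59.6, 38.0 and 34.5% in epithelium-like and 47.1, 34.4 and 62.4% in fibroblast-like cells.

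*Fosb* (chr7:19302696-19310118) encodes a Fos family subunit, which joins AP-1 only as a partner of a Jun protein. Smooth muscle-like cells led in set 1 at 601 CPM (574 to 629), followed by fibroblast-like at 588, pericyte-like at 287, neuron-like at 233, epithelium-like at 232, glia-like at 231, endothelium-like at 181 and leukocyte-like at 50. Glia-like cells stood first in set 2 at 236 CPM (181 to 302), ahead of pericyte-like at 229.7, fibroblast-like at 219.7, smooth muscle-like at 159.7, neuron-like at 129, endothelium-like at 91.1, epithelium-like at 71.4 and leukocyte-like at 48.8. Glia-like cells had the highest rate of set 3, at 1235 CPM (1109 to 1371), above fibroblast-like at 1072, pericyte-like at 775, smooth muscle-like at 550.1, endothelium-like at 437, epithelium-like at 227, leukocyte-like at 189 and neuron-like at 179.6. Neighbours did not differ beyond their *Fosb* intervals in 5, 6 and 2 of 7 pairs in sets 1, 2 and 3. Fibroblast-like cells had more *Fosb* than epithelium-like cells in each set. Leukocyte-like cells were at or near the bottom of each order. It was detected in 14, 6.48 and 13.3% of thinned epithelium-like and 36.3, 15.4 and 44.5% of thinned fibroblast-like cells.

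*Atf3* (chr1:191170296-191183333), a stress-induced factor of the ATF/CREB family, was highest in another class than *Jun*, *Junb* and *Fosb* in each of sets 2 and 3. Endothelium-like cells led in set 1 at 913 CPM (856 to 972), followed by epithelium-like at 879, fibroblast-like at 683, leukocyte-like at 676, smooth muscle-like at 473, pericyte-like at 277, neuron-like at 234 and glia-like at 208. Smooth muscle-like cells stood first in set 2 at 522 CPM (497 to 548), ahead of leukocyte-like at 439, pericyte-like at 367, glia-like at 349, endothelium-like at 217, fibroblast-like at 205, epithelium-like at 181 and neuron-like at 59.6. Smooth muscle-like cells had the highest rate of set 3, at 1597 CPM (1556 to 1639), above pericyte-like at 1546, glia-like at 1323, fibroblast-like at 646, leukocyte-like at 588, endothelium-like at 519, neuron-like at 342 and epithelium-like at 298. Of the 7 neighbouring pairs in each order of *Atf3* rates, 4 in set 1, 5 in set 2 and 5 in set 3 had overlapping intervals. Epithelium-like cells had more *Atf3* than fibroblast-like cells in set 1 and less in sets 2 and 3. Smooth muscle-like cells had the highest rate in both sets where their muscle markers were strong, but not beyond the interval of the next class. That was leukocyte-like cells in set 2 (308 to 608) and pericyte-like cells in set 3 (1378 to 1728). Thinned shares were 29.0, 32.1 and 61.3% in smooth muscle-like, 43.4, 12.5 and 18.3% in epithelium-like and 38.1, 12.3 and 31.9% in fibroblast-like cells.

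*Ier2* (chr8:84661331-84662852) varied less between sets than most of the 8 genes. Smooth muscle-like cells led in set 1 at 1526 CPM (1483 to 1569.7), followed by fibroblast-like at 1468, pericyte-like at 1015, endothelium-like at 849, epithelium-like at 778, neuron-like at 535, glia-like at 487 and leukocyte-like at 267. Pericyte-like cells stood first in set 2 at 1171 CPM (872 to 1540.1), ahead of fibroblast-like at 1015, smooth muscle-like at 891, endothelium-like at 420.4, epithelium-like at 413, glia-like at 405, leukocyte-like at 378 and neuron-like at 149. Pericyte-like cells had the highest rate of set 3, at 1156 CPM (1011 to 1315), above fibroblast-like at 1066, smooth muscle-like at 822, glia-like at 696, endothelium-like at 594, epithelium-like at 373, leukocyte-like at 305 and neuron-like at 107. Neighbours did not differ beyond their *Ier2* intervals in 4, 4 and 3 of 7 pairs in sets 1, 2 and 3. Fibroblast-like, smooth muscle-like and pericyte-like cells took the first 3 places in each set. In fibroblast-like cells its rate was 1468, 1015 and 1066 CPM in sets 1, 2 and 3, and it was detected in 60.1, 55.3 and 53.6% of thinned cells there against 41.9, 31.5 and 30.5% in epithelium-like cells.

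Among the growth arrest genes, *Btg2* (chr1:134074865-134079155), an antiproliferative cofactor of mRNA deadenylation and a known p53 target, was highest in fibroblast-like or smooth muscle-like cells. Fibroblast-like cells led in set 1 at 816 CPM (792 to 839.7), followed by endothelium-like at 796, smooth muscle-like at 778, epithelium-like at 522, pericyte-like at 433, glia-like at 271, neuron-like at 260.0 and leukocyte-like at 196. Smooth muscle-like cells stood first in set 2 at 351 CPM (330.4 to 372), ahead of fibroblast-like at 275, endothelium-like at 224, leukocyte-like at 219.6, pericyte-like at 207, epithelium-like at 162, glia-like at 101 and neuron-like at 69.5. Smooth muscle-like cells had the highest rate of set 3, at 682 CPM (656 to 709.8), above pericyte-like at 595, fibroblast-like at 569, glia-like at 457, endothelium-like at 376, epithelium-like at 214, leukocyte-like at 189 and neuron-like at 115. Intervals of *Btg2* overlapped for 5, 5 and 5 of 7 neighbouring pairs in sets 1, 2 and 3. Epithelium-like cells were below fibroblast-like and smooth muscle-like cells in each set. Thinned shares were 33.8, 13.5 and 14.3% in epithelium-like and 42.1, 18.47 and 32.0% in fibroblast-like cells.

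*Gadd45a* (chr6:67035096-67037407), a p53 and DNA damage response gene, was the lowest of the 8 genes in all 3 sets over all cells. Fibroblast-like cells led in set 1 at 72.2 CPM (65.3 to 79.7), followed by pericyte-like at 69.3, smooth muscle-like at 64.7, endothelium-like at 57.0, epithelium-like at 45.8, leukocyte-like at 39.6, neuron-like at 32.0 and glia-like at 22.5. Endothelium-like cells stood first in set 2 at 187 CPM (148 to 233), ahead of pericyte-like at 91.9, fibroblast-like at 78.9, smooth muscle-like at 72.3, epithelium-like at 67.5, glia-like at 67.5, leukocyte-like at 61.0 and neuron-like at 19.9. Epithelium-like cells had the highest rate of set 3, at 238 CPM (231 to 246), above pericyte-like at 195, fibroblast-like at 195, glia-like at 158, endothelium-like at 112, smooth muscle-like at 106, neuron-like at 64.1 and leukocyte-like at 48.4. Of the 7 neighbouring pairs in each order of *Gadd45a* rates, 7 in set 1, 7 in set 2 and 7 in set 3 had overlapping intervals. Epithelium-like cells were highest only in set 3. In sets 1 and 2 the rates of several small classes rest on few UMIs, and neuron-like cells of set 2 had 2. Thinned shares were 2.94, 5.50 and 19.1% in epithelium-like and 6.47, 8.22 and 14.8% in fibroblast-like cells.

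*Gadd45b* (chr10:80930091-80932204), a stress kinase regulator of the same family, had the widest range between classes of the 8 genes in sets 2 and 3, while *Fosb* had it in set 1. Leukocyte-like cells led in set 1 at 498 CPM (437 to 566), followed by pericyte-like at 360.1, fibroblast-like at 229, smooth muscle-like at 192, epithelium-like at 146, glia-like at 119.7, endothelium-like at 103 and neuron-like at 74.2. Pericyte-like cells stood first in set 2 at 1011 CPM (734 to 1357), ahead of glia-like at 858, smooth muscle-like at 528, leukocyte-like at 415, endothelium-like at 308, fibroblast-like at 240.3, epithelium-like at 210.4 and neuron-like at 79.5. Pericyte-like cells had the highest rate of set 3, at 4833 CPM (4533 to 5147), above smooth muscle-like at 1380.5, glia-like at 1228, fibroblast-like at 1021, leukocyte-like at 881, endothelium-like at 636, epithelium-like at 203 and neuron-like at 158. Intervals of *Gadd45b* overlapped for 3, 4 and 2 of 7 neighbouring pairs in sets 1, 2 and 3. The highest and lowest class differed 30.5-fold in set 3. Pericyte-like cells of that set had 4833 CPM (4533 to 5147) over 129 cells, and 83.8% of the thinned cells had a UMI. Epithelium-like cells stayed between 146 and 210.4 CPM in the 3 sets. The 2 *Gadd45* genes therefore did not share an order of classes.

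**Figure D1:**
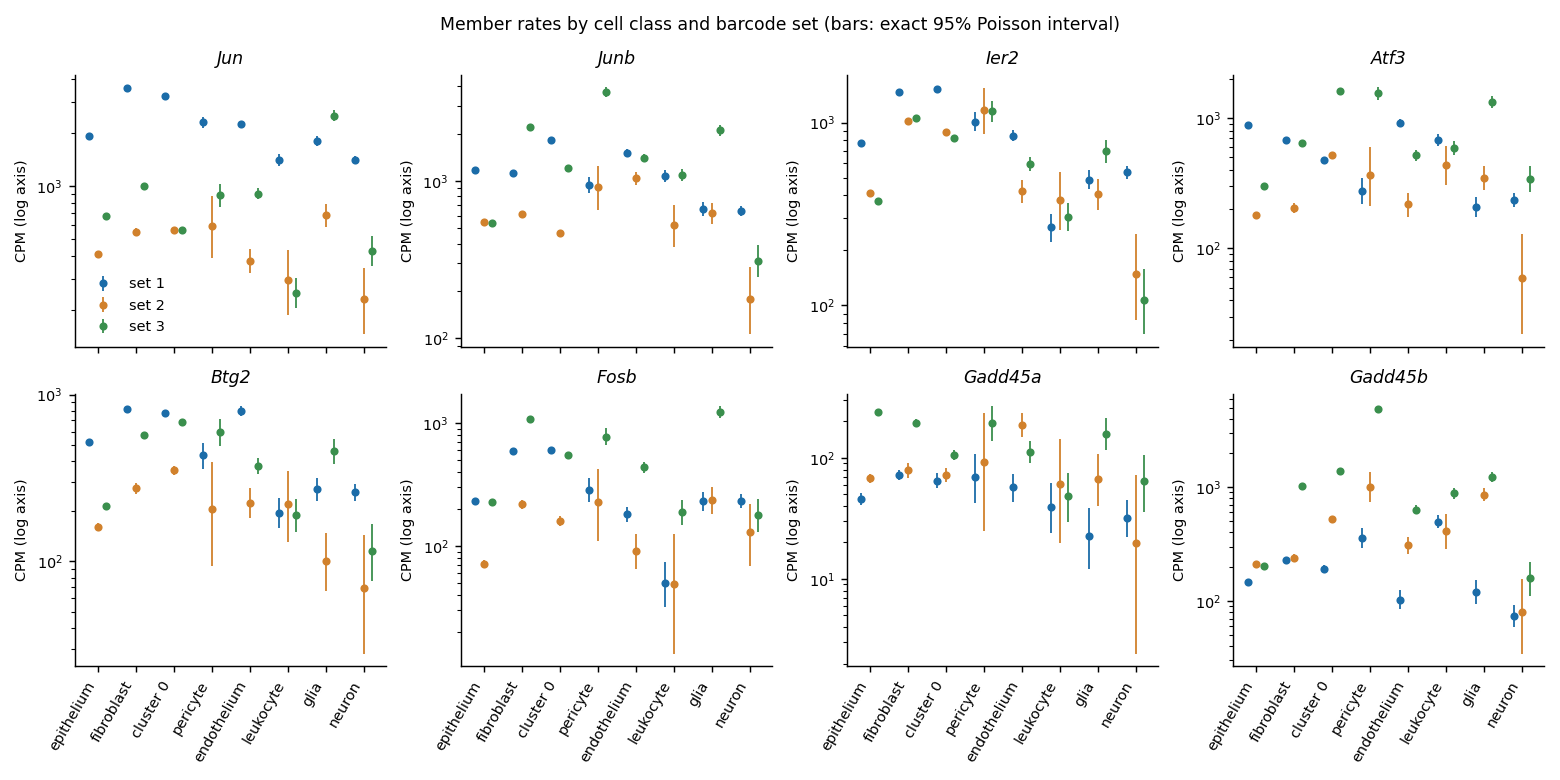
Rate of each gene (CPM, log axis) in 8 cell classes, with 1 point for each barcode set and exact 95% Poisson intervals. Cluster 0 is the smooth muscle-like class. *Jun* is highest in set 1 in most classes, *Gadd45b* reaches 4833 CPM in pericyte-like cells of set 3, and neuron-like cells are low for most genes.

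When the 8 genes were summed, stromal and mural classes lay above epithelium-like cells in sets 2 and 3. In set 1 smooth muscle-like cells stood at 8674 CPM (8572 to 8778) and fibroblast-like cells at 8558 CPM (8481 to 8635), with overlapping intervals, and endothelium-like cells followed at 6643. Epithelium-like (5697) and pericyte-like cells (5672) did not differ beyond their intervals, and leukocyte-like (4209.8), glia-like (3808) and neuron-like cells (3423) were lowest. In set 2 pericyte-like cells led at 4593 CPM (3979 to 5276), and smooth muscle-like (3555), glia-like (3328) and fibroblast-like cells (3201) overlapped with their neighbours. Endothelium-like (2868), leukocyte-like (2379) and epithelium-like cells (2070.5) overlapped in the same way, above neuron-like cells (914). No neighbours overlapped in set 3, where the order was pericyte-like (13678), glia-like (9694), fibroblast-like (7768), smooth muscle-like (6912), endothelium-like (4984), leukocyte-like (3545), epithelium-like (2774) and neuron-like cells (1711).

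The make-up of the sum differed between sets. *Jun* made up 41.8% of it in fibroblast-like cells of set 1, 17.1% in set 2 and 12.9% in set 3. In epithelium-like cells its part was 33.7, 19.9 and 24.4%. *Gadd45b* was 35.3% of the sum in pericyte-like cells of set 3 but 6.35% in set 1. *Atf3* was 23.1% in smooth muscle-like cells of set 3, the highest part of any gene there, and 5.45% in set 1.

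**Figure D2:**
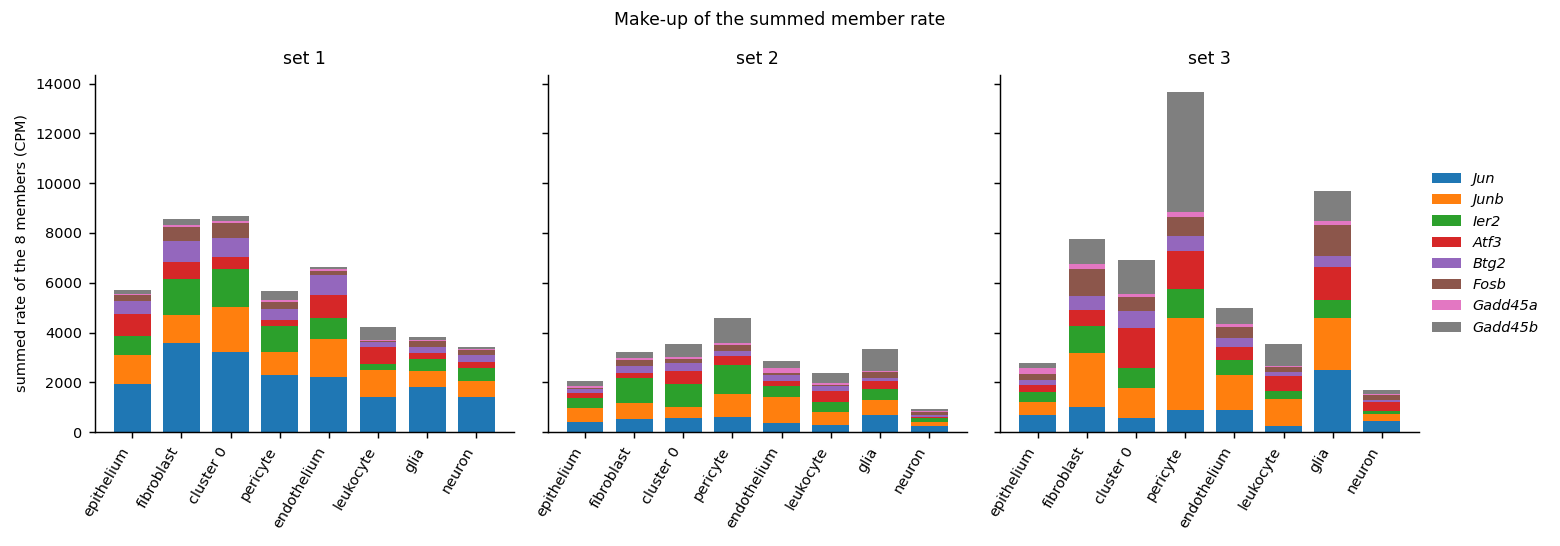
Summed rate of the 8 genes (CPM) in each class and barcode set, stacked by gene. *Jun* is the largest part in set 1, and *Gadd45b* and *Junb* make up most of the pericyte-like bar of set 3.

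Against fibroblast-like cells, epithelium-like cells had a lower summed rate in each set. The log2 ratio of epithelium-like over fibroblast-like cells was -0.59 (-0.61 to -0.57) in set 1, -0.63 (-0.67 to -0.59) in set 2 and -1.49 (-1.51 to -1.46) in set 3. A gene was called when the 2 rates differed at least 2-fold with at least 20 UMIs over both classes. In set 1, 1 of the 8 genes was called lower (*Fosb*) and 0 higher, beside 20.6% of 7017 genes called lower and 16.2% called higher. Set 2 had 2 genes lower (*Fosb* and *Ier2*) and 0 higher, beside 18.2% lower and 16.8% higher of 6384 genes. Set 3 had 6 lower and 0 higher, beside 20.8% and 22.7% of 6969 genes. In sets 1 and 2 the count was therefore near the share of all genes, while in set 3 it was above it. The median log2 ratio of the 8 genes was -0.65, -0.32 and -1.46 in sets 1, 2 and 3, beside -0.043, -0.028 and 0.19 for all genes compared.

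*Fosb* was the gene called lower in epithelium-like cells of each set, where its log2 ratio was -1.34 (-1.43 to -1.25), -1.62 (-1.79 to -1.45) and -2.24 (-2.30 to -2.17). *Ier2* followed at -0.92 (-0.97 to -0.86), -1.30 (-1.37 to -1.22) and -1.52 (-1.57 to -1.46). *Jun*, at -0.90 (-0.93 to -0.87), -0.41 (-0.50 to -0.32) and -0.56 (-0.61 to -0.51), and *Btg2*, at -0.65 (-0.71 to -0.58), -0.77 (-0.90 to -0.63) and -1.41 (-1.49 to -1.33), were lower in epithelium-like cells of each set as well. *Gadd45b* went from -0.65 (-0.77 to -0.53) in set 1 and -0.19 (-0.33 to -0.057) in set 2 to -2.33 (-2.39 to -2.26) in set 3. The other 3 genes changed direction between sets. *Junb* was 0.066 (0.017 to 0.11) in set 1, -0.16 (-0.24 to -0.079) in set 2 and -2.02 (-2.06 to -1.98) in set 3. *Atf3* was 0.37 (0.31 to 0.43), -0.18 (-0.32 to -0.035) and -1.12 (-1.19 to -1.05). *Gadd45a* was -0.66 (-0.88 to -0.43), -0.22 (-0.46 to 0.015) and 0.29 (0.18 to 0.41), and it was the 1 gene higher in epithelium-like cells of set 3. Several directions depended on the fibroblast-like cluster compared. Against cluster 2 alone *Btg2* in set 1 was 0.023, and in set 2 *Jun* was 0.032, *Junb* 0.34, *Atf3* 0.33 and *Gadd45b* 0.33, all above 0. In set 2 *Gadd45b* was also 0.23 after thinning and 0.42 in cells of 1000 to 3000 UMIs, and its thinned share was 18.7% in epithelium-like against 14.4% in fibroblast-like cells. The small *Junb* ratio of set 1 was below 0 under 7 of 13 alternatives and that of set 2 above 0 under 3 of 13. Against cluster 1 alone *Junb* in set 1 was -0.45 and *Gadd45a* in set 3 was -0.010. The ratio of the sum stayed below 0 against cluster 1 and cluster 2, at -1.16 and -0.23 in set 1, -0.98 and -0.29 in set 2, and -1.54 and -1.42 in set 3.

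Epithelium-like cells were deeper than fibroblast-like cells, with median totals of 38167, 4064 and 3563 UMIs against 16061, 1240 and 1326. Among cells of 1000 to 3000 UMIs the summed rate was 2386 CPM (2296 to 2479.6, 536 cells) in epithelium-like and 3004 CPM (2922 to 3087, 1131 cells) in fibroblast-like cells of set 2. In set 3 the same band gave 2682 CPM (2615 to 2750, 1116 cells) and 7459.5 CPM (7362 to 7558, 1933 cells). Fibroblast-like cells under 1000 UMIs had 4328 CPM (4112 to 4551, 394 cells) in set 2 and 9927 CPM (9655 to 10205, 607 cells) in set 3, above their deeper cells. Within the band the lower summed rate of epithelium-like cells was smaller in set 2 and of like size in set 3. In set 1 the band held 2 epithelium-like and 14 fibroblast-like cells. In set 2 *Jun*, *Ier2*, *Btg2* and *Fosb* were lower in epithelium-like cells of the band. *Junb*, *Atf3*, *Gadd45a* and *Gadd45b* were higher, with *Gadd45b* at 289 CPM (258 to 322) against 216 CPM (195 to 240). The part of depth in the difference between these classes was not tested.

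**Figure D3:**
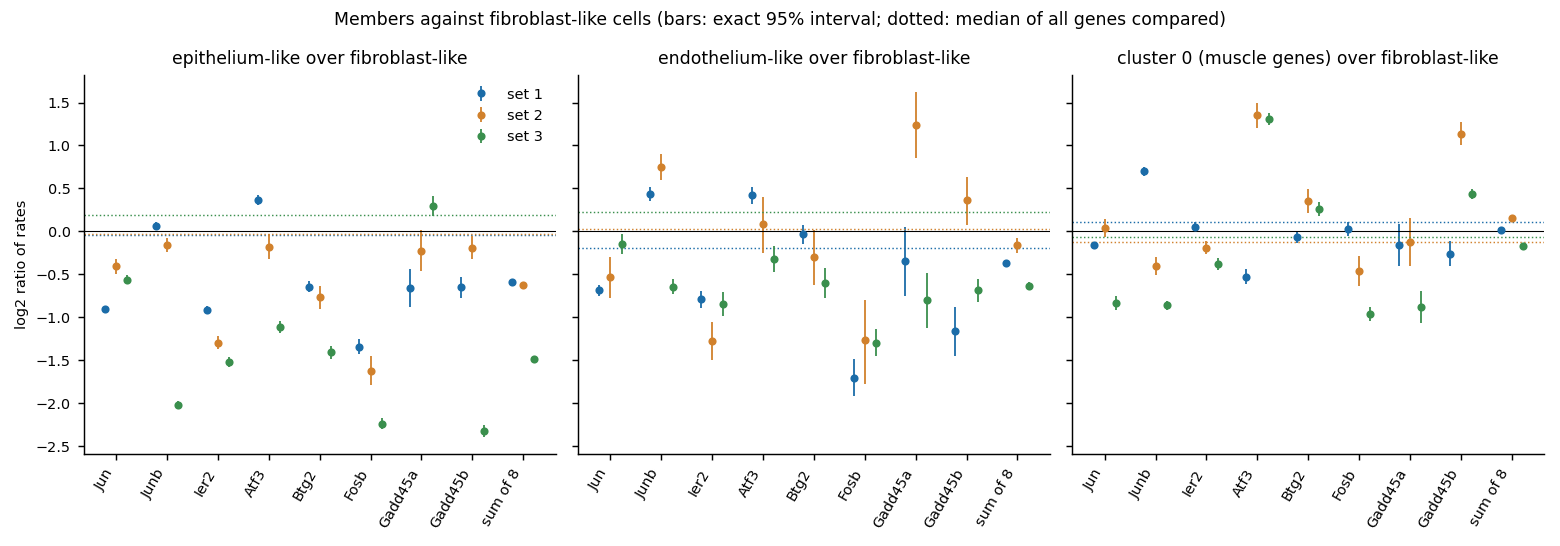
Log2 ratio of rates of each gene and of the sum of 8, for epithelium-like, endothelium-like and smooth muscle-like (cluster 0) cells over fibroblast-like cells, by barcode set, with exact 95% intervals. Dotted lines give the median of all genes compared. In the first panel the set 3 values of *Junb*, *Fosb* and *Gadd45b* lie at or below -2.02, while *Atf3* and *Gadd45b* of set 2 lie above 1 in the smooth muscle-like panel.

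Endothelium-like cells differed less from fibroblast-like cells, at -0.37 (-0.40 to -0.33), -0.16 (-0.25 to -0.072) and -0.64 (-0.69 to -0.59) for the sum. Called lower were 2 genes in set 1 (*Fosb* and *Gadd45b*), 2 in set 2 (*Fosb* and *Ier2*) and 1 in set 3 (*Fosb*), beside 22, 12.6 and 14.5% of all genes. Called higher were 0, 1 (*Gadd45a*) and 0, beside 12, 14.8 and 21.0%. *Fosb* stood at -1.70 (-1.92 to -1.49), -1.27 (-1.78 to -0.80) and -1.29 (-1.45 to -1.14). *Junb* was higher in endothelium-like cells in sets 1 and 2, at 0.44 (0.36 to 0.52) and 0.75 (0.60 to 0.90), and lower in set 3, at -0.64 (-0.73 to -0.55). The median over the 8 genes was -0.51, -0.11 and -0.66, beside -0.19, 0.022 and 0.22 over all genes compared. In cells of 1000 to 3000 UMIs the ratio of the sum turned to 0.044 in set 1, from 7 endothelium-like and 14 fibroblast-like cells, and to 0.35 in set 2, and was -0.20 in set 3.

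Smooth muscle-like cells were close to fibroblast-like cells for the sum, at 0.019, 0.15 and -0.17. *Atf3* was called higher in sets 2 and 3, at 1.35 (1.21 to 1.49) and 1.30 (1.24 to 1.37), and *Gadd45b* in set 2, at 1.14 (1.00 to 1.27). The counts higher were 0, 2 and 1, beside 5.31, 9.68 and 12.7% of all genes. In set 1, where the muscle label is weak, *Atf3* was -0.53 (-0.62 to -0.44). In set 3 *Jun*, *Junb*, *Fosb* and *Gadd45a* lay between -0.96 and -0.83, below fibroblast-like cells but not 2-fold.

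Pericyte-like cells of set 1 had 2 genes called lower (*Fosb* and *Atf3*), beside 10.1% of all genes, and those of set 2 had 1 called higher (*Gadd45b*), beside 54.4%. In set 3 they had 2 genes called higher, *Gadd45b* at 2.24 (2.14 to 2.35) and *Atf3* at 1.26 (1.08 to 1.43), beside 25.1% of all genes. In pericyte-like cells, and in leukocyte-like cells of set 2, the share of all genes called higher rests in part on genes under 3 UMIs, counted as 3. For both classes in set 2 that share is therefore no measure of biology. Leukocyte-like cells of sets 1 and 3 had no such gene among their higher calls. Such genes made up 410 of 912 of the higher calls in pericyte-like cells of set 1, 2115 of 2465 in set 2 and 478 of 1259 in set 3, and 1160 of 1697 in leukocyte-like cells of set 2. Among genes with at least 3 UMIs in both classes, 21.4 and 22.6% were called higher in pericyte-like cells of sets 2 and 3, and 23.0% in leukocyte-like cells of set 2. Of the same genes 9.76% were called lower in leukocyte-like cells of set 2. Glia-like cells had 5 genes called lower in set 1, beside 12.9% of all genes, and 2 called higher in set 3, beside 21.0%, namely *Jun* at 1.32 (1.2 to 1.44) and *Atf3* at 1.03 (0.87 to 1.19). In set 2, 1 was called higher (*Gadd45b*) and 2 lower (*Ier2* and *Btg2*), beside 14.1 and 8.98%. The glia-like sum was -1.17 (-1.23 to -1.11) in set 1, 0.056 (-0.045 to 0.16) in set 2 and 0.32 (0.26 to 0.38) in set 3. Leukocyte-like cells had 4, 2 and 6 genes called lower, beside 26.5, 7.53 and 20.6%, and 1 (*Gadd45b*), 1 (*Atf3*) and 0 called higher, beside 15.9, 37.1 and 15.7%. Within that class *Fosb* was -3.55 (-4.20 to -2.98) in set 1 and -2.51 (-2.85 to -2.18) in set 3, while *Gadd45b* was 1.12 (0.91 to 1.32) in set 1. Neuron-like cells had 7 genes called lower in each set, beside 17.6, 15.4 and 20.7%, from 32, 15 and 19 cells. Their sum was -1.32 (-1.37 to -1.27), -1.81 (-2.12 to -1.51) and -2.18 (-2.33 to -2.04).

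Clusters within a class differed too. Fibroblast-like cluster 1, led by *Lamc3* and *Col15a1*, had a summed rate of 12689.6 CPM (12523 to 12858) in set 1, 4081 CPM (3962 to 4202) in set 2 and 8058 CPM (7933 to 8184) in set 3. Cluster 2, led by *Dpt* and *Ptx3*, had 6662 CPM (6579.8 to 6744), 2523 CPM (2441 to 2607) and 7441 CPM (7314 to 7569). Cluster 1 was above cluster 2 in each set, with the smallest gap in set 3. Epithelium-like clusters 4 and 5 differed less than the fibroblast-like pair, at 5591 and 5887 CPM in set 1, 1804 and 2234 in set 2, and 2849 and 2872 in set 3. Cluster 3 gave 2388 and 2334 in sets 2 and 3, and had 3 cells in set 1. Of the leukocyte-like clusters, the macrophage-gene cluster 11 was led by *C1qa*, *C1qb* and *C1qc*. Cluster 12 was led by *S100a8* and *S100a9*, with *Vpreb3* and *Cd79a* also among its top 10 genes. In set 3 cluster 11 had 4408 CPM (4145 to 4684), above cluster 12 at 2384 CPM (2162 to 2624). In set 1 the rates were 4569 CPM (4357 to 4789) and 2817 CPM (2495 to 3169), from 29 and 9 cells. In set 2 their intervals overlapped, at 2387 CPM (2033 to 2786) and 2339 CPM (1620 to 3268), from 18 and 7 cells. The unnamed clusters were 8, led by mitotic genes such as *Cenpf*, at 10002, 2995 and 5274 CPM, and 9, with 9 epithelial markers and *Upk1a*, at 4528, 1629 and 2787 CPM.

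The summed rate was lowest in set 2 in all 8 classes, whereas *Gadd45a* and *Gadd45b* were lowest in set 1 in most of them. *Gadd45a* of set 1 was below both other sets beyond intervals only in epithelium-like, endothelium-like and glia-like cells. *Gadd45b* was so in epithelium-like, smooth muscle-like, pericyte-like, endothelium-like and glia-like cells. The sets are not assigned to ages and differ in depth, share of classes and library, which cannot be told apart. Fibroblast-like cells of set 3 had 6 genes called higher than those of set 2, beside 9.35% of 5678 genes, and the median log2 ratio was 1.48 beside -0.28 for all genes compared. The highest ratios were those of *Fosb*, at 2.29 (2.16 to 2.42), and *Gadd45b*, at 2.09 (1.96 to 2.21), and the interval of *Ier2*, at 0.070 (-0.0018 to 0.14), took in 0. Median totals of these 2 groups of cells were 1240 and 1326 UMIs, and the part of depth was not tested. Fibroblast-like clusters 1 and 2 held 769 and 866 cells in set 2, and 1463 and 1138 in set 3. The part of this mix was not tested either. The same comparison called 4 genes higher in smooth muscle-like cells, 6 in glia-like, 6 in pericyte-like and 4 in endothelium-like cells, beside 5.72, 8.15, 12.1 and 9.38%. In leukocyte-like cells, of which set 2 had 25, 3 genes were called higher beside 8.49%, and the median log2 ratio was 0.10 beside -0.16 for all genes compared. In epithelium-like cells, which lay most often in cluster 5 in set 2 and in cluster 3 in set 3, 2 genes were called, *Gadd45a* at 1.82 (1.69 to 1.95) and *Fosb* at 1.67 (1.55 to 1.79), beside 7.48%. *Junb* and *Gadd45b* of epithelium-like cells were -0.027 (-0.078 to 0.024) and -0.048 (-0.13 to 0.035).

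*Jun*, *Atf3*, *Btg2* and *Fosb* were called higher in set 1 than in set 2 in both epithelium-like and fibroblast-like cells. In epithelium-like cells, mostly of cluster 4 in set 1, *Junb* made it 5 genes called higher, beside 24.8% of all genes, with *Atf3* at 2.28 (2.20 to 2.36) and *Jun* at 2.22 (2.16 to 2.27). Fibroblast-like cells had 4 genes called higher, beside 25.3%, with *Jun* at 2.71 (2.63 to 2.79). *Gadd45a* and *Gadd45b* did not follow, at -0.56 and -0.53 in epithelium-like and -0.13 and -0.067 in fibroblast-like cells. Cells of set 1 had a median of 19357 UMIs against 1738 in set 2, and the part of depth in this difference was not tested.

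In single cells thinned to 900 UMIs, the mean number of the 8 genes with a UMI was 2.76, 1.55 and 1.85 in epithelium-like cells of sets 1, 2 and 3. It was 3.22, 1.89 and 3.21 in fibroblast-like and 3.21, 2.32 and 3.21 in smooth muscle-like cells. Pericyte-like cells of set 3 had the highest mean, 4.29 over 105 cells, and neuron-like cells of set 2 the lowest, 0.929 over 14 cells. None of the 8 genes was found in 6.47% (3.88 to 10.0) of fibroblast-like and 5.88% (2.57 to 11.3) of epithelium-like cells of set 1, with overlapping intervals. These shares were 15.1% (13.2 to 17.0) and 19.2% (17.3 to 21.3) in set 2, and 3.59% (2.86 to 4.45) and 15.3% (14 to 16.7) in set 3. In set 3 at least 4 were found in 41.2% (39.2 to 43.3) of fibroblast-like and 10.9% (9.81 to 12.2) of epithelium-like cells. In set 2 the shares with at least 4 were 13.4% and 6.09%, and in set 1 45.0% and 28.7%.

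**Figure D4:**
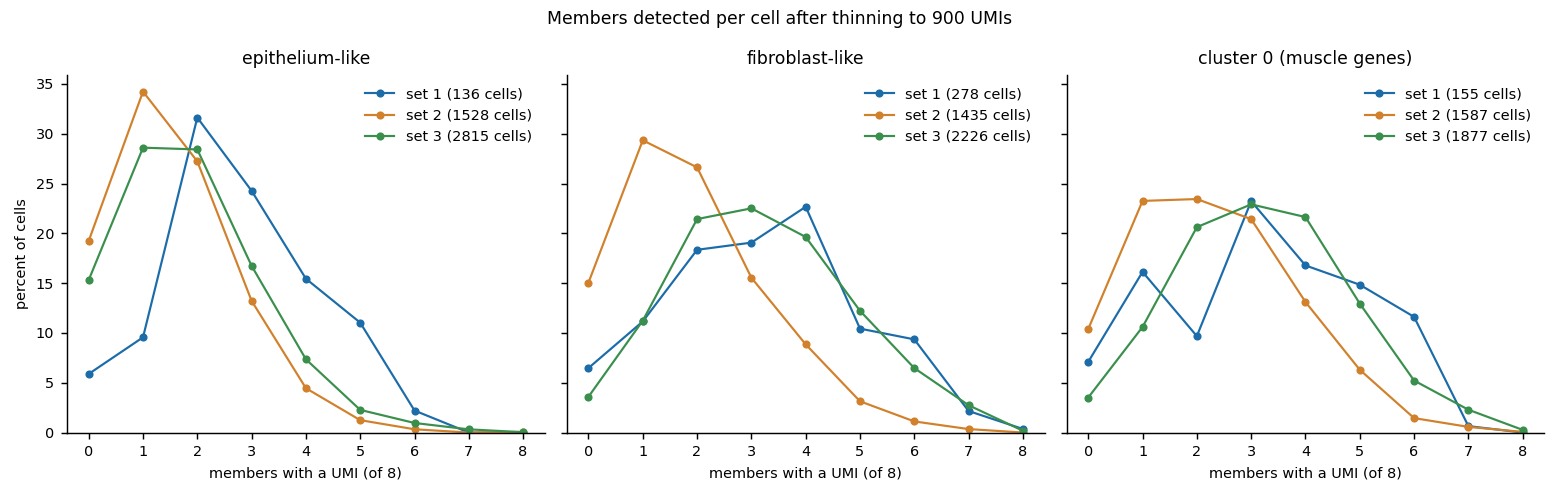
Percent of cells by the number of the 8 genes with a UMI after thinning to 900 UMIs, for epithelium-like, fibroblast-like and smooth muscle-like (cluster 0) cells of each barcode set. The curve of set 2 lies furthest left in each panel, and fibroblast-like cells of sets 1 and 3 peak at 3 to 4 genes.

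Detection of the 8 genes in the same cells was read pair by pair, and pairs of other genes were not counted, so the shares and the counts of pairs have no background and are not read as a trait of these genes. For a pair, the share of cells with the second gene was compared between cells with and without the first. In fibroblast-like cells 28, 26 and 20 of 28 pairs had the higher share among cells with the first gene, and 9, 16 and 15 of them beyond both intervals. In set 2, 42.3% (37.7 to 47.1) against 30.8% (27.9 to 33.8) of those with and without *Jun* had *Junb*. In set 3 the shares were 69.3% (66.0 to 72.4) against 58.4% (55.7 to 61.0). With and without *Atf3*, 32.2% (25.4 to 39.6) against 11.8% (10.1 to 13.8) of fibroblast-like cells of set 2 had *Gadd45b*, a wider gap than for *Jun* and *Junb*. In epithelium-like cells 20 of 26, 23 of 28 and 26 of 28 pairs were higher, and 3, 5 and 11 beyond both intervals. *Jun* and *Junb* were no such pair there in set 2, with *Junb* in 37.9% (33.3 to 42.6) against 38.1% (35.2 to 41.0) of cells with and without *Jun*. *Fosb* was found in 21.9% (18.4 to 25.8) against 11.4% (10.1 to 12.8) of epithelium-like cells of set 3 with and without *Atf3*. All cells compared had the same 900 UMIs. Clusters within a class were pooled, so a difference between clusters enters these shares.

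**Figure D5:**
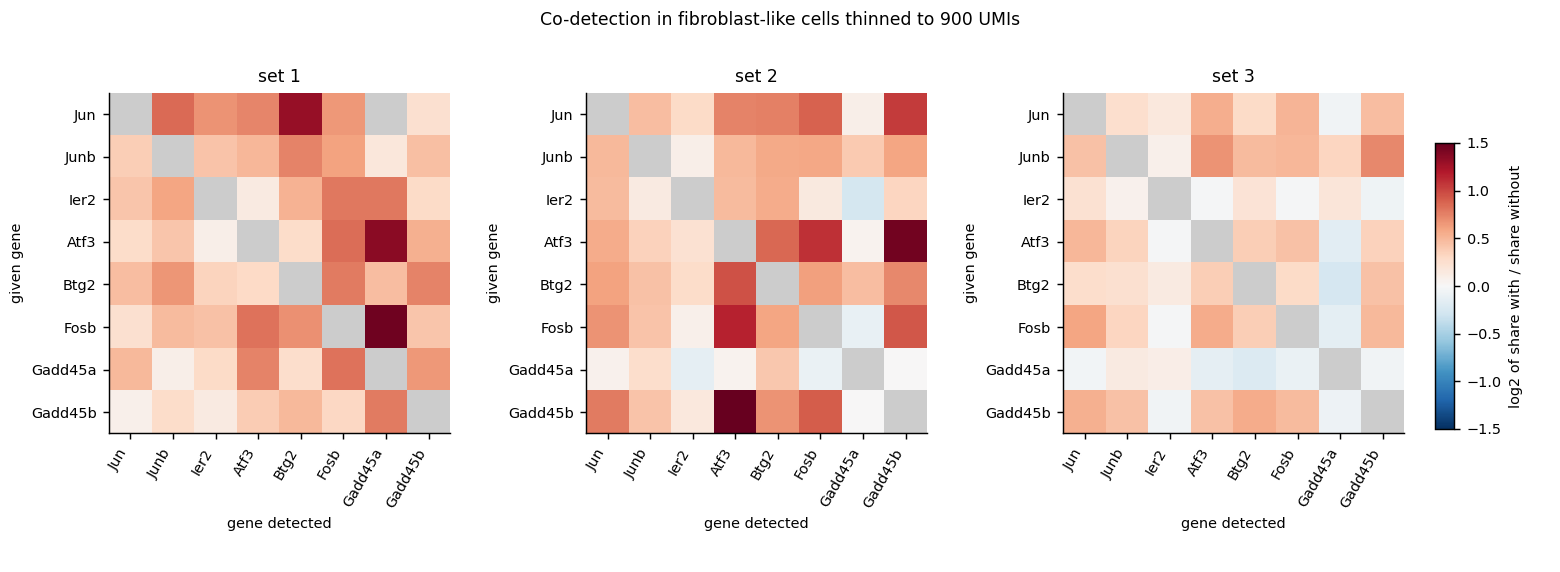
Log2 of the share of fibroblast-like cells with a UMI of the column gene among cells with the row gene over the share among cells without it, after thinning to 900 UMIs, by barcode set. Colors end at 1.5 in both directions, and grey marks the diagonal and a pair with a share of 0. Most squares are red, and the blue squares of sets 2 and 3 lie in rows or columns of *Gadd45a* or *Ier2*.

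To see which genes had a like pattern, summed rates of 30 groups of cells (a cluster in a barcode set with at least 30 cells) were correlated with the summed rate of the 8 genes, on the scale of log2 of CPM plus 5. These points share clusters, libraries and depth, and the values are a description with no test. Of the 8 genes themselves, *Junb* (0.877), *Fosb* (0.860), *Btg2* (0.852) and *Atf3* (0.837) had the highest Pearson's r, followed by *Ier2* (0.776) and *Jun* (0.723), each of them being part of the sum. *Gadd45b* (0.468) and *Gadd45a* (0.117) followed it least over the pooled points. Within a set *Gadd45b* was closer to some of the other genes, with r of 0.769 and 0.674 with *Jun* in sets 1 and 2 (7 and 10 points) and of 0.906 with *Junb* in set 3 (13 points). The partner was not the same in each set. With *Jun* r was 0.188 in set 3, and with *Junb* it was 0.570 in set 1 and 0.371 in set 2. Among 3273 genes at 20 CPM or more, the 10 others with the highest r were *Nr2f2* (0.836), *Jund* (0.821), *Cdkn2aip* (0.807), *Ccnl1* (0.797), *Gem* (0.788), *Rbm15* (0.780), *Cnot4* (0.758), *Ing1* (0.753), *Ikbip* (0.751) and *Ppp1r15a* (0.742). *Jund* encodes the third Jun protein, and *Ppp1r15a* encodes a phosphatase subunit of the integrated stress response. *Nr2f2* encodes a nuclear receptor of stromal and venous cells.

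Other genes of the same pathways were taken from 6 lists and read in the comparison of epithelium-like with fibroblast-like cells, with values for sets 1, 2 and 3 in turn and a negative log2 ratio where epithelium-like cells were lower. Of 13 other AP-1 subunits and partners 5 had a row, of which 1, 1 and 2 were called lower and 0, 0 and 0 higher, with medians of -0.37, -0.31 and -0.76. *Jund* was -0.37, 0.062 and -0.73, *Fosl2* 0.71, -0.31 and -1.03 and *Mafk* 0.25, 0.0079 and -0.76. *Batf3*, which encodes a leucine zipper partner of Jun proteins, was -3.62, -3.02 and -3.30, at low rates.

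Of 49 other immediate early genes 26 had a row, and 13, 12 and 17 were called lower against 2, 2 and 2 higher, of 26, 25 and 25 compared, with medians of -1.03, -0.87 and -1.24. The feedback inhibitor of growth factor receptors *Errfi1* was -1.09, -1.25 and -1.40, *Id3*, an inhibitor of helix-loop-helix factors, -1.17, -1.93 and -2.52, and the matrix protein gene *Cyr61* -0.72, 0.20 and 0.12. The transcription factor genes *Klf2* (-2.31, -2.46 and -2.90), *Egr2* (-1.09, -2.20 and -2.93), *Nr4a2* (-1.83, -1.01 and -1.79) and *Nr4a3* (-1.18, -1.08 and -1.24) were lower in epithelium-like cells of each set, as was the prostaglandin synthase gene *Ptgs2* (-1.18, -1.77 and -3.79). *Dusp6*, an ERK phosphatase, went the other way, at 1.48, 2.0 and 3.71. Of all genes 20.6, 18.2 and 20.8% were called lower in these comparisons.

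Of 19 p53 targets and growth arrest genes 11 had a row, with 0, 5 and 3 called lower and 0, 0 and 2 higher, and medians of -0.23, -0.54 and -0.50. *Btg1*, the close relative of *Btg2*, was -0.39, -1.06 and -0.88, *Phlda3* -0.32, 0.068 and 1.06 and the apoptosis gene *Bax* -0.084, 0.64 and 0.52. In the unfolded protein and integrated stress response list 13 of 18 had a row, with 0, 2 and 6 lower and 2, 0 and 0 higher, and medians of -0.084, -0.77 and -0.91. The endoplasmic reticulum chaperone genes *Hspa5* (-0.084, -0.77 and -1.14), *Calr* (-0.25, -0.58 and -0.90) and *Hsp90b1* (-0.20, -0.39 and -0.54) were not past 2-fold in sets 1 and 2.

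Heat shock genes, 11 of 19 with a row, had 0, 2 and 2 called lower and 2, 2 and 2 higher, with medians of 0.10, -0.53 and -0.49. The small heat shock protein gene *Hspb1* was higher in epithelium-like cells, at 3.02, 1.28 and 2.63, as was *Hspa4l*, at 2.31, 2.17 and 1.58, while *Dnaja1* was 0.20, -0.30 and -0.49 and *Hspe1* 0.10, 0.52 and 0.72. Of 12 oxidative stress genes 10 had a row, with 4, 5 and 5 lower and 2, 0 and 0 higher, and medians of -0.61, -1.01 and -0.92. The metallothionein genes *Mt1* (-2.38, -2.36 and -2.60) and *Mt2* (-3.49, -2.45 and -2.85) and the sulfiredoxin gene *Srxn1* (-1.61, -2.27 and -1.16) were lower in epithelium-like cells of each set. *Hmox1*, heme oxygenase, was 0.094, -3.14 and -3.44, and the peroxiredoxin gene *Prdx1* 0.033, -0.54 and -0.10. The medians of all 6 lists lay below 0 in sets 2 and 3, and in set 1 that of the heat shock genes alone lay above 0. Beside them the median of all genes compared was -0.043, -0.028 and 0.19, so the set 1 stress response median of -0.084 was near it. Of all genes 20.6, 18.2 and 20.8% were called lower and 16.2, 16.8 and 22.7% higher. The heat shock counts of sets 2 and 3 were near these shares.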

How the data were processed

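The authors counted UMIs with Cell Ranger 3.1.0 on mm10 with added transgene sequences, filtered out likely multiplets, empty droplets and low-quality cells with much mitochondrial RNA, and deposited 1 table. Sample labels name a v3 kit and the methods another version. The deposited values are on a natural log scale (UMIs divided by the cell's total and scaled to 10000, with 1 added before the log), up to 7.94, and all 11120281 values above 0 gave whole UMIs within 0.05. The table was held in part: of 9784 rows, 1 with empty cells and 2 sharing a name were left out, and the rows held 52.7, 50.4 and 49.4% of the UMIs of sets 1, 2 and 3 (totals of 20511786, 15929745 and 27444044). A RefSeq entry matched 94.8% of rows.

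Cells with fewer than 200 genes were left out (97 of set 3). Sets were integrated in Seurat 5.3.0 (R 4.3.3) over 20 dimensions and 2000 features, 30 principal components and resolution 0.5, with cell cycle scores regressed out and the 83 listed genes kept out of the features. A cluster carried a marker detected in 10% or more of its cells at 2 or more times the rate in the median cluster. At least 3 carried markers named a cluster, ties and clusters with more top 10 genes of another class stayed unnamed, and this rule was set after seeing the clusters. Scrublet (scanpy 1.11.5) put 3 cells of set 1 over its threshold, and none was removed.

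Rates have exact Poisson, shares exact (Clopper-Pearson) binomial and log2 ratios exact binomial-split 95% intervals for counting error only. In the reported ratios, though not in the alternatives, fewer than 3 UMIs count as 3. The design foresaw raw counts. The 8 genes and all lists were chosen with earlier results of these data known. Genes named from the other lists were the 3 with the highest rate of each list and those at least 2-fold apart in 1 direction in all sets with at least 100 UMIs in each. The 10 genes most like the sum were named, and leading genes of clusters were named after their values were seen. Only the recovery of UMIs and the ratios with their intervals were tested on simulated cells, which had no spread beyond counting. Clustering, class names, thinning, co-detection and like patterns were not tested in this way. Alternatives were another resolution, no integration, 500 genes per cell, removal of high doublet scores, listed genes among the features, single cell classes, means of cell rates, thinning and another denominator.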

Additional observations from a re-analysis of the deposited data

Results flagged for a closer look

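Of the log2 ratios of the 7 other named classes over fibroblast-like cells, 21 (a gene or the sum in 1 class) pointed one way in 1 barcode set and the other way in another, each with an interval that leaves out 0. Values whose interval took in 0 are not given. In epithelium-like cells the higher values were in set 1 for *Atf3* and *Junb* and in set 3 for *Gadd45a*. For *Atf3* the epithelium-like over fibroblast-like ratio was 0.37 in set 1, -0.18 in set 2 and -1.12 in set 3. For *Gadd45a* the epithelium-like over fibroblast-like ratio was -0.66 in set 1 and 0.29 in set 3. For *Junb* the epithelium-like over fibroblast-like ratio was 0.066 in set 1, -0.16 in set 2 and -2.02 in set 3. In endothelium-like cells the values below 0 lay in set 3 for all of these genes, and for *Gadd45b* also in set 1. For *Atf3* the endothelium-like over fibroblast-like ratio was 0.42 in set 1 and -0.32 in set 3. For *Gadd45a* the endothelium-like over fibroblast-like ratio was 1.24 in set 2 and -0.80 in set 3. For *Gadd45b* the endothelium-like over fibroblast-like ratio was -1.16 in set 1, 0.36 in set 2 and -0.68 in set 3. For *Junb* the endothelium-like over fibroblast-like ratio was 0.44 in set 1, 0.75 in set 2 and -0.64 in set 3. In smooth muscle-like cells *Atf3* and *Gadd45b* were below fibroblast-like cells in set 1, where their muscle label is weak, and above them in sets 2 and 3, while *Junb* and *Ier2* went the other way. For *Atf3* the smooth muscle-like over fibroblast-like ratio was -0.53 in set 1, 1.35 in set 2 and 1.30 in set 3. For *Gadd45b* the smooth muscle-like over fibroblast-like ratio was -0.26 in set 1, 1.14 in set 2 and 0.44 in set 3. For *Ier2* the smooth muscle-like over fibroblast-like ratio was 0.056 in set 1, -0.19 in set 2 and -0.38 in set 3. For *Junb* the smooth muscle-like over fibroblast-like ratio was 0.70 in set 1, -0.40 in set 2 and -0.86 in set 3. For the sum of the 8 genes the smooth muscle-like over fibroblast-like ratio was 0.15 in set 2 and -0.17 in set 3. In glia-like cells all of these values were below 0 in set 1 and above 0 elsewhere. For *Atf3* the glia-like over fibroblast-like ratio was -1.71 in set 1, 0.77 in set 2 and 1.03 in set 3. For *Fosb* the glia-like over fibroblast-like ratio was -1.35 in set 1 and 0.20 in set 3. For *Gadd45b* the glia-like over fibroblast-like ratio was -0.94 in set 1, 1.84 in set 2 and 0.27 in set 3. For *Jun* the glia-like over fibroblast-like ratio was -0.99 in set 1, 0.32 in set 2 and 1.32 in set 3. For the sum of the 8 genes the glia-like over fibroblast-like ratio was -1.17 in set 1 and 0.32 in set 3. Pericyte-like cells showed the same order of signs as glia-like cells. For *Atf3* the pericyte-like over fibroblast-like ratio was -1.30 in set 1, 0.84 in set 2 and 1.26 in set 3. For *Junb* the pericyte-like over fibroblast-like ratio was -0.25 in set 1, 0.57 in set 2 and 0.75 in set 3. For the sum of the 8 genes the pericyte-like over fibroblast-like ratio was -0.59 in set 1, 0.52 in set 2 and 0.82 in set 3. In leukocyte-like cells 1 gene was higher in sets 1 and 2 and lower in set 3. For *Gadd45b* the leukocyte-like over fibroblast-like ratio was 1.12 in set 1, 0.79 in set 2 and -0.21 in set 3. For *Junb* in epithelium-like cells the direction is not steady, since its set 1 ratio was below 0 under 7 of 13 alternatives and its set 2 ratio above 0 under 3. Those of *Atf3* in set 2 and *Gadd45a* in set 3 changed sign under 2 and 1 of 13. Single genes were recomputed under the alternatives in epithelium-like cells only. The opposite directions are between barcode sets with 1 library each, and the differences were not tested. The sets also differ in depth and in which clusters hold each class, and the part of either in these differences was not tested.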

How the results depend on the processing

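The summed rate of the 8 genes of epithelium-like cells stayed below that of fibroblast-like cells under all 13 alternatives in each set, though its size moved. In set 1 (-0.59 as reported) it was -0.030 without integration, -0.66 with at least 500 genes per cell, -0.64 without the 5% of cells with the highest doublet scores, -0.72 with the listed genes among the features, -0.72 with cells classed one by one, -0.63 from means of single cell rates, -0.62 from cells thinned to 900 UMIs, -0.52 per UMIs of the rows held, -1.29 in cells of 1000 to 3000 UMIs, -1.16 against fibroblast cluster 1 alone, -0.23 against fibroblast cluster 2 alone and -0.65 with cluster 9 counted as epithelium. In set 2 (-0.63 as reported) it was -0.55 with at least 500 genes per cell, -0.51 from cells thinned to 900 UMIs, -0.58 per UMIs of the rows held, -0.33 in cells of 1000 to 3000 UMIs, -0.98 against fibroblast cluster 1 alone and -0.29 against fibroblast cluster 2 alone. In set 3 (-1.49 as reported) it was -1.53 at resolution 1.0, -1.35 with at least 500 genes per cell, -1.54 without the 5% of cells with the highest doublet scores, -1.43 with cells classed one by one, -1.56 from means of single cell rates, -1.44 per UMIs of the rows held, -1.54 against fibroblast cluster 1 alone and -1.42 against fibroblast cluster 2 alone. The endothelium-like over fibroblast-like ratio of the sum was less steady and changed sign in sets 1 and 2. In set 1 (-0.37 as reported) the ratio was 0.25 without integration, -0.43 with at least 500 genes per cell, -0.46 with the listed genes among the features, -0.55 with cells classed one by one, -0.42 from means of single cell rates, -0.49 from cells thinned to 900 UMIs, 0.044 in cells of 1000 to 3000 UMIs, -0.93 against fibroblast cluster 1 alone and -0.0040 against fibroblast cluster 2 alone. In set 2 (-0.16 as reported) the ratio was -0.047 with cells classed one by one, 0.022 from means of single cell rates, 0.017 from cells thinned to 900 UMIs, 0.35 in cells of 1000 to 3000 UMIs, -0.51 against fibroblast cluster 1 alone and 0.18 against fibroblast cluster 2 alone. In set 3 (-0.64 as reported) the ratio was -0.59 without integration, -0.41 with at least 500 genes per cell, -0.53 with cells classed one by one, -0.20 in cells of 1000 to 3000 UMIs, -0.69 against fibroblast cluster 1 alone and -0.58 against fibroblast cluster 2 alone. Without integration set 1 kept 3 fibroblast-like cells and 19 UMIs of the 8 genes while 479 of its 766 cells became unnamed, and in cells of 1000 to 3000 UMIs it had 2 epithelium-like cells with 10 UMIs, 7 endothelium-like and 14 fibroblast-like cells, so these values rest on few counts. For the others the cause was not tested. Single genes took the opposite sign in 23 of 300 recomputed epithelium-like over fibroblast-like ratios. Of these, 4 were *Gadd45a* in set 2, whose reported interval took in 0 (-0.22 as reported, -0.68 to 0.27 over the alternatives). *Junb* in set 1 (0.066 as reported) was -0.20 with at least 500 genes per cell, -0.13 with the listed genes among the features, -0.27 with cells classed one by one, -0.064 from means of single cell rates, -0.25 in cells of 1000 to 3000 UMIs, -0.45 against fibroblast cluster 1 alone and -0.032 with cluster 9 counted as epithelium. *Btg2* in set 1 (-0.65 as reported) was 0.023 against fibroblast cluster 2 alone. *Jun* in set 2 (-0.41 as reported) was 0.032 against fibroblast cluster 2 alone. *Junb* in set 2 (-0.16 as reported) was 0.089 with at least 500 genes per cell, 0.12 in cells of 1000 to 3000 UMIs and 0.34 against fibroblast cluster 2 alone. *Atf3* in set 2 (-0.18 as reported) was 0.060 in cells of 1000 to 3000 UMIs and 0.33 against fibroblast cluster 2 alone. *Gadd45b* in set 2 (-0.19 as reported) was 0.028 from means of single cell rates, 0.23 from cells thinned to 900 UMIs, 0.42 in cells of 1000 to 3000 UMIs and 0.33 against fibroblast cluster 2 alone. *Gadd45a* in set 3 (0.29 as reported) was -0.010 against fibroblast cluster 1 alone. For these alternatives a ratio with fewer than 20 UMIs over both classes or fewer than 3 in 1 of them was not computed. Thinning to 1200 in place of 900 UMIs moved 37 of 48 shares beyond their intervals, as more UMIs give more detection. Of the 10 genes with the most similar pattern, 9 stayed with 1 CPM added and 6 with no minimum rate. The restriction to cells of 1000 to 3000 UMIs, the single fibroblast clusters and the count of cluster 9 were chosen after seeing the data. No paired analysis was possible because the labels give 1 library for every tissue. Few cells limit the small classes, and 1 library for each tissue leaves no measure of biological spread.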
